A study of Mus musculus with 6 samples.

Results

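The serine, folate and ATF4 amino acid response genes described here are 38 named genes of the 21448 in the deposited expression table of mouse B cell lymphomas. They were matched by gene symbol, and all 38 were found. They fall into 8 branches: serine synthesis (3 genes), the folate cycle (6), the methionine cycle (2), ATF4 and its partner factors (7), ATF4 stress targets (3), aminoacyl-tRNA synthetases (11), amino acid transport (4) and proline synthesis (2).

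RNA came from primary lymphoma B cells of mice of the E mu-Myc transgenic strain, whose Myc transgene, under an enhancer of the antibody heavy chain locus, gives B lineage tumours, and both groups carry it. The 3 libraries of each group are labelled wild type or PRDM15 KO. Per the labels' protocols, ethanol served as the control, 4-hydroxytamoxifen (OHT) at 50 nM for 24 hours served to delete the gene, and collection followed 3 days later. Which libraries received OHT is inferred from the genotype labels, since the titles give only a group and a replicate number. The sources used here do not give the recombinase, the allele or the age of the mice. Per the labels, the cells were cultured with IL7 in medium to which serine, glycine, asparagine, proline and glutamine had been added. The series' title links the zinc finger protein PRDM15 to B cell metabolism, so the question is whether these genes of amino acid and one-carbon metabolism differed between the groups.

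Cells make serine from a glycolytic intermediate through the enzymes PHGDH, PSAT1 and PSPH. The enzymes SHMT1 and SHMT2 move a carbon unit from serine to folate, and the MTHFD enzymes convert the folate-bound unit for use in nucleotide synthesis and, through methionine, in methylation. When amino acids run short or proteins misfold, phosphorylation of eIF2α increases translation of the transcription factor ATF4, which switches on genes for serine and asparagine synthesis, amino acid transport and tRNA charging. ATF4 activity is set largely at the level of translation, so the Atf4 transcript alone does not report it.

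ATF4 binds with a C/EBP partner to a composite element, here searched as TGATGNAA, which reads TTNCATCA on the other strand. RefSeq promoter windows (GRCm38.p6, 250 bases before to 50 after the start) were at hand for 34 of the 38 genes, the others being Slc25a32, Lars, Nars and Wars. The letters were present on either strand in 12 of these 34 genes (35.3%) and in 1219 of 27025 genes in the RefSeq table (4.51%). Part of the members were listed as ATF4 response genes, so a higher share follows in part from how the genes were chosen. The sites below are examples of the element before the start, from 2 stress targets, a factor, a proline gene and a transporter. Each is 30 bases on the strand of its gene, 5′ to 3′, with the 8 matched letters in capitals.
Asns, chr6:7693214-7693243, minus strand: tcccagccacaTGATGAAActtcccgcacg
Chac1, chr2:119351038-119351067, plus strand: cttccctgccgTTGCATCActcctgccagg
Atf3, chr1:191183425-191183454, minus strand: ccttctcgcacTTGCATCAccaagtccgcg
Pycr1, chr11:120643833-120643862, minus strand: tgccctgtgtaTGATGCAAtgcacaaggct
Slc7a11, chr3:50443661-50443690, minus strand: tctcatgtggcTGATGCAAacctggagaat
Other genes with a match were Aars, Gars, Iars, Tars, Yars, Trib3 and Slc1a4. A match is a description of these letters and shows no binding. The E-box CACGTG, the letters bound by MYC with MAX, was present in 4 of the 34 windows (11.8%), those of Aars, Iars, Tars and Aldh18a1, and in 8.09% of all genes.

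The 6 libraries held 28852951 to 47255421 reads assigned to genes. Values are given in CPM of effective library size, that is CPM with a library size adjusted by the authors and with no division by gene length, so they are compared between libraries and not between genes. Prdm15 read 29.2, 47.3 and 41.3 in wild type (replicates 1, 2 and 3, the order used throughout) and 40.2, 40.9 and 39.2 in the libraries labelled knockout (log2 change 0.06, limma paired adjusted p = 0.834). Prdm15 was thus not lower in the libraries labelled knockout. The allele is not given in the sources used here, so whether the deletion would lower reads summed over all exons is not known. These levels do not bear out the labels, and every direction given here rests on the labels. Markers of the B lineage were present in all libraries, with the 12 summing to 4020 to 5540 in wild type and 3492 to 4801 in labelled knockout. Cd24a made up 1957 to 2817 of the wild type sums and 1444 to 2298 of the labelled knockout sums. Of the 12, 7 were above their partner in pair 1, 6 in pair 2 and 1 in pair 3. The 17 myeloid markers summed to 58.8, 204 and 159.9 in wild type and to 36.4, 2154 and 1161 in the matching labelled knockout libraries. Lyz2 led them and Mpeg1 was at 165 and 79.5 in labelled knockout replicates 2 and 3, while the granulocyte gene Elane had a highest value of 0.0474 in any library. S100a8, also of granulocytes, was at 0.0267, 0.0752 and 0 in wild type and at 0.0333, 0.627 and 0.308 in labelled knockout. In bulk RNA, fewer cells of a type and less RNA per cell cannot be told apart. The 8 markers of T and NK cells summed to 5.16, 1.10 and 1.41 in wild type and to 7.45, 11.1 and 2.75 in labelled knockout. Of these 8, 7 were above their partner in pair 1, 8 in pair 2 and 7 in pair 3, and 2 had a mean of at least 1. Summed markers of red cells reached 1.15. The plasma cell sum reached 319, of which Irf4 made up 282, with Jchain at 0.972 or below in every library. The sum for stroma and endothelium reached 102, of which Pecam1 made up 101, with Col1a2 at 1.33 or below in every library.

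None of the serine, folate and ATF4 genes passed the test. Of the 38 genes, 37 had a mean value of at least 1 and were tested with limma on log2(value + 1), and every fold change below is on this scale. Slc7a11 was below that mean. The added 1 shrinks the changes of genes at low values. None of the 37 had an adjusted p under 0.05, against 0.00949% of all 10533 tested genes, and 1 had an unadjusted p under 0.05 (2.70%, against 4.06% of all tested genes). Libraries with the same replicate number varied together, so a second fit took the replicate number as a blocking factor (called paired here). It again called 0 of 37, against 0.873% of all tested genes, with paired adjusted p between 0.0508 and 0.984. At an unadjusted p under 0.05 the paired fit had 10 of the 37 (27.0%), against 21% of all tested genes. On reads recovered from the values, edgeR called 0 members with and without pairs, against 0.37% and 0% of all tested genes. DESeq2 called 0 members without pairs, against 1.04%. With pairs it called 2, against 7.01%: Wars on the higher side (3.02% of all tested genes) and Mthfd1l on the lower side (3.99%). A further limma fit left out labelled knockout replicates 2 and 3, the libraries with the most myeloid transcripts. It takes the remaining labelled knockout library to vary like wild type, so only log2 changes from it are given. It also sets labelled knockout replicate 1 against all 3 wild type libraries without pairing, so the level of replicate 1 enters its changes. For Phgdh, high in replicate 1 of both groups, it gave 0.52, against 0.0052 with all libraries.

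On the scale of log2(value + 1), the changes were small as well as short of the threshold. The median log2 change over the 37 was -0.0050, against -0.028 over all tested genes, and the medians in pairs 1, 2 and 3 were -0.11, 0.057 and -0.021. The absolute change was under 0.5 in 34 of 37 (91.9%, against 92.4% of all tested genes), and the 95% interval of the paired fit lay within 0.5 of 0 on both sides for 26 of 37 (70.3%, against 73.3%). Between the members, 13 were lower in all 3 pairs (35.1%, against 29.9%), 5 were higher in all 3 (13.5%, against 16.7%) and 19 had mixed signs. The groups did not overlap for 8 members (21.6%, against 9.5% of all tested genes). These were Mthfd2, Aars and Wars on the higher side (8.11%, against 3.21%) and Shmt2, Ddit3, Ddit4, Slc6a9 and Pycr1 on the lower side (13.5%, against 6.29%). The 11 tested genes with the ATF4 element in the window had a median change of -0.0050 and the 22 without it -0.0067.

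**Figure D1:**
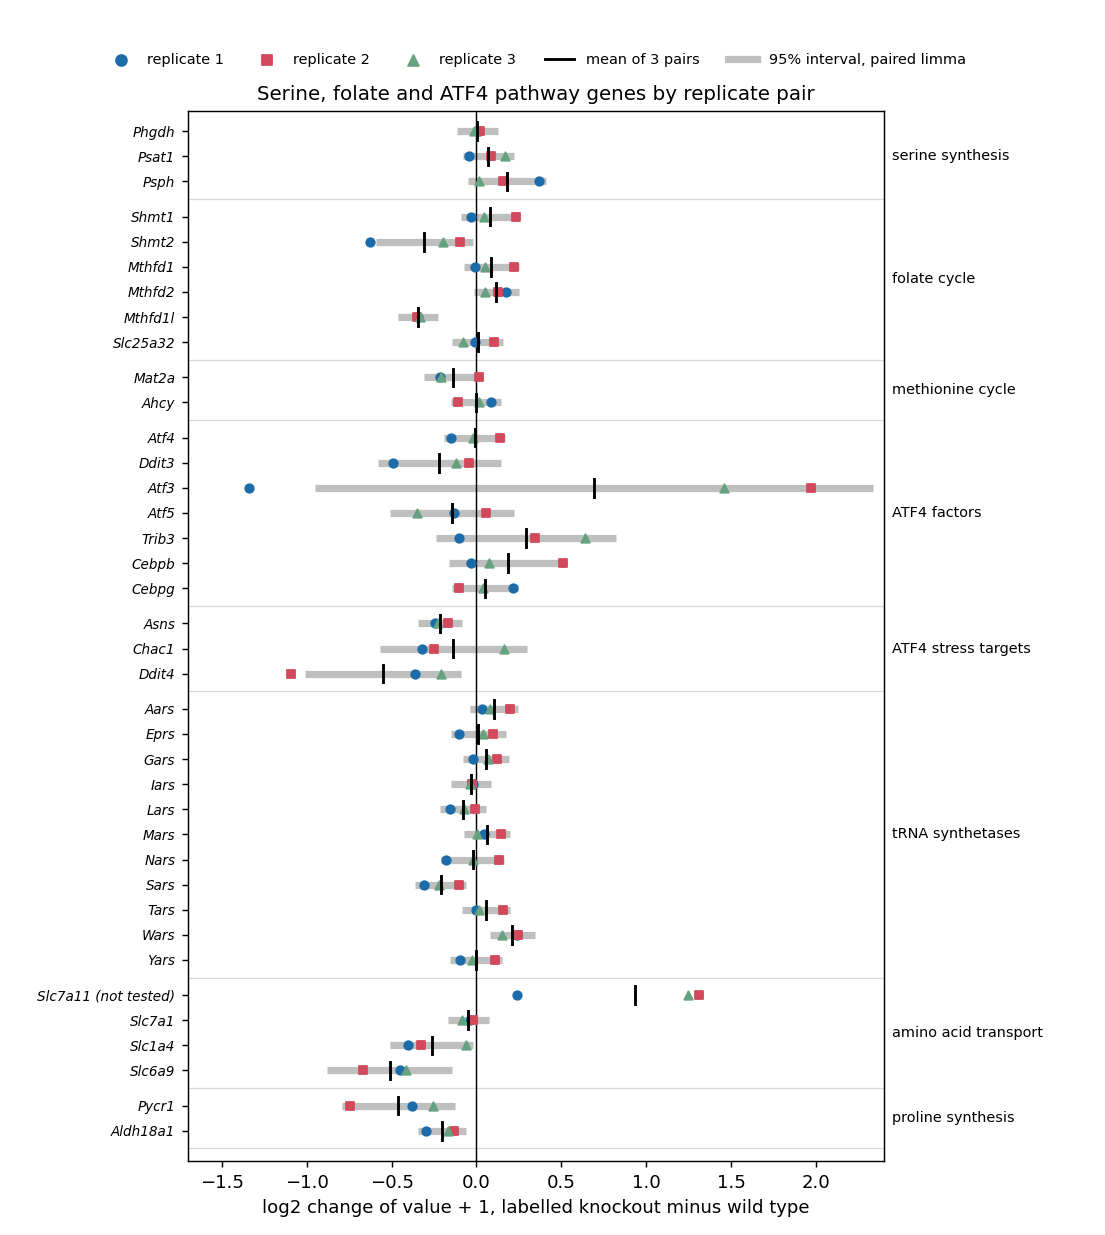
Change in log2(value + 1) from wild type to labelled knockout (horizontal axis) for the 38 genes by branch, with 1 symbol per replicate number, a black bar for the mean of the 3 pairs and a grey bar for the 95% interval of the paired limma fit. Most grey bars cross 0 or end within 0.5 of it, Mthfd1l has its 3 symbols together at -0.35 to -0.33, and Atf3 has replicate 1 at -1.34 and the others at 1.97 and 1.46.

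The serine synthesis enzymes did not differ between the groups beyond the spread of the libraries. Phgdh, which opens the pathway, was at 570.1, 337 and 334 in wild type and at 575, 342 and 330.3 in the labelled knockout libraries. The groups covered the same range, and replicate 1 was high in both. Its log2 change was 0.0052, with a paired 95% interval of -0.12 to 0.13. Psat1, the transaminase of the second step, was at 299.8, 300.3 and 282 in wild type and at 291, 319 and 316 in labelled knockout (log2 change 0.07, interval -0.08 to 0.22, paired adjusted p = 0.532). Psph, the phosphatase that releases serine, was at 23.0, 21.6 and 22.6 and at 30.0, 24.2 and 22.9 (0.18, interval -0.05 to 0.41, paired adjusted p = 0.319). For Psph the labelled knockout library was furthest above its partner in replicate 1, and the groups overlapped.

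Within the folate cycle, the mitochondrial synthetase Mthfd1l had the smallest paired p of the 37 tested members. MTHFD1L makes formate from the folate-bound carbon unit in mitochondria. It was at 233, 229 and 169 in wild type and at 183, 179 and 134 in the labelled knockout libraries. The groups overlapped, because replicate 3 was low in both, while each labelled knockout library was below its partner by a log2 change of -0.35, -0.35 and -0.33. The mean change was -0.34 (paired interval -0.46 to -0.23, paired SE 0.046). The paired limma adjusted p was 0.0508 and the unpaired one 0.9998, so Mthfd1l did not pass. Paired edgeR gave an adjusted p of 0.0770 and paired DESeq2 1.88e-05. Paired limma gave an adjusted p of 0.0233 without replicate 1, 0.246 without replicate 2 and 0.290 without replicate 3.

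Shmt2, the mitochondrial serine hydroxymethyltransferase, did not overlap between the groups but differed unevenly. It was at 557, 411 and 398 in wild type and at 359.7, 384 and 348 in labelled knockout. The lowest wild type library stood just above the highest labelled knockout one, and wild type replicate 1 stood apart. The log2 change was -0.63, -0.10 and -0.20 in pairs 1, 2 and 3 (mean -0.31, paired interval -0.59 to -0.02, paired adjusted p = 0.221). In the GENCODE M21 annotation an exon of Ndufa4l2, a mitochondrial protein gene, overlaps an exon of Shmt2 on the opposite strand, and Ndufa4l2 was at 36.9 in wild type replicate 1 and at 0.577 or below in the other 5 libraries. The strand setting of the counting is not given in the sources used here, so the part of such reads in the Shmt2 value was not tested.

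The other folate and methionine genes stayed close to 0. Mthfd2, the mitochondrial dehydrogenase of the same route as Mthfd1l, was at 126, 140.1 and 137 in wild type and at 143, 153 and 142 in labelled knockout. All labelled knockout libraries were above the wild type ones, by a log2 change of 0.12 (paired interval -0.01 to 0.25, paired adjusted p = 0.276). Its mean change had the opposite sign to that of Mthfd1l and Shmt2, and the difference between these genes was not tested. The cytosolic Shmt1 (log2 change 0.08, interval -0.09 to 0.25) and Mthfd1 (0.09, -0.08 to 0.25) and the mitochondrial folate carrier gene Slc25a32 (0.0063, -0.14 to 0.16) overlapped between the groups. Mat2a, which makes the methyl donor S-adenosylmethionine, was at 596, 561 and 559.9 and at 515, 567 and 484 (-0.14, -0.31 to 0.04, paired adjusted p = 0.321), overlapping through replicate 2. Ahcy, which clears its product, was at 138 ± 2.95 (SD, n = 3) and 138 ± 10.5 (-0.0027, -0.15 to 0.15).

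The transcript of Atf4 itself did not differ beyond the spread of the libraries. It was at 326, 297 and 311 in wild type and at 293, 328 and 306 in labelled knockout, with the groups covering the same range. Its log2 change was -0.011, with a paired interval of -0.19 to 0.17. Cebpg, a C/EBP partner of ATF4, was at 36.6, 92.2 and 80.8 and at 42.6, 85.7 and 83.1 (0.05, -0.14 to 0.24). Replicate 1 was low in both groups for Cebpg, and no library departed from its partner by more than 0.21. Cebpb was at 9.94, 6.47 and 10.3 and at 9.71, 9.61 and 10.9 (0.18, -0.16 to 0.53).

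Of the stress-induced factors, Ddit3, Atf5 and Trib3 rested on few reads. Ddit3, which encodes the stress factor CHOP, was at 5.13, 4.76 and 5.01 in wild type and at 3.36, 4.59 and 4.53 in labelled knockout, on 101 to 234 reads per library. Wild type lay above labelled knockout throughout, by a small gap except in replicate 1 (log2 change -0.22, paired interval -0.58 to 0.15, paired adjusted p = 0.422). An exon of Ddit3 overlaps one of Mars on the opposite strand in GENCODE M21, and Mars was between 169 and 195 in all libraries. Atf5 (log2 change -0.14, interval -0.51 to 0.22) rested on 83 to 252 reads and the pseudokinase gene Trib3 (0.29, -0.24 to 0.82) on 24 to 120 reads, and both overlapped between the groups.

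Atf3, a stress factor of many cell types, was the tested member with the largest mean difference, and its sign differed between pairs. It was at 14.9, 4.56 and 3.36 in wild type and at 5.29, 20.8 and 11.0 in the labelled knockout libraries. The log2 change was -1.34, 1.97 and 1.46 in pairs 1, 2 and 3, with a mean of 0.69 and a paired interval of -0.95 to 2.34 (paired adjusted p = 0.568). Without replicate 1 of both groups, paired limma gave a log2 change of 1.71 and an adjusted p of 0.000746. Without replicate 2 the change was 0.06 (adjusted p = 0.973), and without replicate 3 it was 0.31 (adjusted p = 0.903). Without labelled knockout replicates 2 and 3 the unpaired limma change was -0.21, with 1 labelled knockout library left. That fit set this library against all wild type libraries, so its change is not that of pair 1 (-1.34). In the fit without replicate 1, Mthfd1l (adjusted p = 0.0233) and Slc7a11 (0.0209) passed too, so 3 of 38 members were called, against 8.03% of the 10570 genes tested (4.77% higher, 3.26% lower). Slc7a11 met the minimum mean of 1 there only through labelled knockout (1.86 and 1.87, against 0.150 and 0.214 in wild type). Its call in that fit is therefore not read as a result. The libraries where Atf3 was above its partner were those with more myeloid transcripts, as 15 of the 17 myeloid markers were above their partner in pair 2, all 17 in pair 3 and 4 in pair 1. Their part in the Atf3 values was not tested.

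Slc7a11, which encodes the cystine and glutamate exchanger that feeds glutathione synthesis, also differed most in pairs 2 and 3, on very few reads. It was at 0.214, 0.150 and 0.214 in wild type, on 8, 6 and 10 reads, and at 0.432, 1.86 and 1.87 in labelled knockout, on 13, 74 and 79 reads. All labelled knockout libraries were above all wild type ones. The ratio within pairs was 2.02 in pair 1 (exact 95% interval from the counts 0.777 to 5.63), 12.3 in pair 2 (5.41 to 34.7) and 8.75 in pair 3 (4.52 to 19.0), intervals that cover counting error only. In a limma fit on log2(value + 1) with no filter on low values its log2 change was 0.93 (unpaired adjusted p = 0.9999, paired 0.273). The added 1 exceeds every wild type value of Slc7a11, so this change is smaller than the ratios would give. The part of myeloid transcripts in the Slc7a11 values was not tested.

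**Figure D2:**
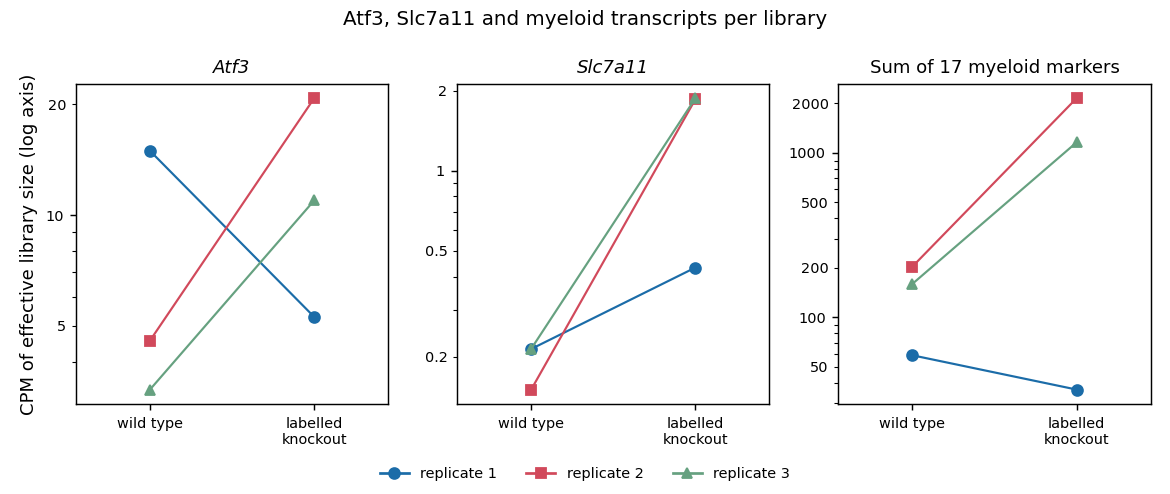
Level of Atf3 and Slc7a11 and the sum of 17 myeloid markers per library in CPM of effective library size, on log axes that have their own range by panel, where a line connects libraries sharing a number. Labelled knockout replicates 2 and 3 are above their partners in all 3 panels, and in replicate 1 the labelled knockout library is below its partner for Atf3 (5.29 against 14.9) and for the myeloid sum (36.4 against 58.8).

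Among the stress targets, Asns and Ddit4 were lower in each pair without passing. Asns, asparagine synthetase, was at 75.3, 139 and 67.5 in wild type and at 63.4, 124 and 57.5 in labelled knockout. Replicate 2 was high in both groups, so the groups overlapped, and each labelled knockout library was below its partner by a log2 change of -0.25, -0.17 and -0.23. The mean was -0.21 (paired interval -0.34 to -0.08, paired adjusted p = 0.137). Ddit4, an inhibitor of mTOR complex 1 that responds to low oxygen as well as to ATF4, was at 29.1, 37.7 and 27.0 and at 22.5, 17.2 and 23.3. The groups did not overlap, and replicate 2 gave most of the difference (log2 change -0.36, -1.09 and -0.21, mean -0.55, paired interval -1.01 to -0.09, paired adjusted p = 0.195). Ddit4 was the member with an unadjusted p under 0.05 in the unpaired fit (limma adjusted p = 0.9998). Chac1, a glutathione-degrading enzyme, rested on 32 to 145 reads and had mixed signs (-0.14, -0.57 to 0.30).

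The tRNA synthetases, which attach amino acids to their tRNAs, differed little between the groups. All 11 had an absolute log2 change under 0.5 and a paired 95% interval within 0.5 of 0, with a median change of 0.010. Changes ranged from -0.21 for Sars to 0.21 for Wars. Wars, the tryptophanyl-tRNA synthetase, was at 78.6, 88.2 and 90.1 in wild type and at 93.0, 105 and 100.0 in labelled knockout. The groups did not overlap, and each labelled knockout library was above its partner by 0.24, 0.24 and 0.15 (paired interval 0.08 to 0.34, paired adjusted p = 0.140, paired DESeq2 0.0331). Aars, the alanyl-tRNA synthetase, was at 286, 262 and 279 and at 292, 300.1 and 294 (log2 change 0.10, interval -0.04 to 0.24, paired adjusted p = 0.348), with the groups apart by a small margin. Sars, the seryl-tRNA synthetase, was at 334, 209 and 214 and at 269, 195 and 184 (-0.21, -0.36 to -0.06, paired adjusted p = 0.162). Sars was lower in each pair, and replicate 1 was high in both groups. The remaining 8, Eprs, Gars, Iars, Lars, Mars, Nars, Tars and Yars, overlapped between the groups and had changes from -0.079 to 0.063.

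The 3 tested transport genes and the 2 proline genes were lower in labelled knockout in each pair, by amounts that did not pass. Slc6a9, which encodes the glycine transporter GLYT1, was at 2.72, 4.66 and 3.06 in wild type and at 1.73, 2.56 and 2.04 in labelled knockout, on 52 to 186 reads. The groups did not overlap (log2 change -0.51, paired interval -0.88 to -0.14, paired adjusted p = 0.163). Slc1a4, which encodes the serine and alanine transporter ASCT1, was at 21.7, 17.2 and 21.9 and at 16.1, 13.5 and 21.0 (-0.26, -0.51 to -0.02, paired adjusted p = 0.220), with overlap through replicate 3. Slc7a1, the cationic amino acid transporter gene, was at 182, 162 and 158 and at 177, 159 and 148 (-0.05, -0.17 to 0.07).

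Pycr1 and Aldh18a1 encode mitochondrial enzymes of proline synthesis from glutamate. Pycr1 was at 8.95, 12.6 and 7.57 in wild type and at 6.65, 7.13 and 6.16 in labelled knockout. All 3 wild type libraries were above the labelled knockout ones, which lay close together (log2 change -0.46, paired interval -0.79 to -0.13, paired adjusted p = 0.162). Aldh18a1 was at 169, 201 and 176 and at 137, 183 and 156, lower in each pair but overlapping between the groups (-0.20, -0.34 to -0.06, paired adjusted p = 0.159).

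**Figure D3:**
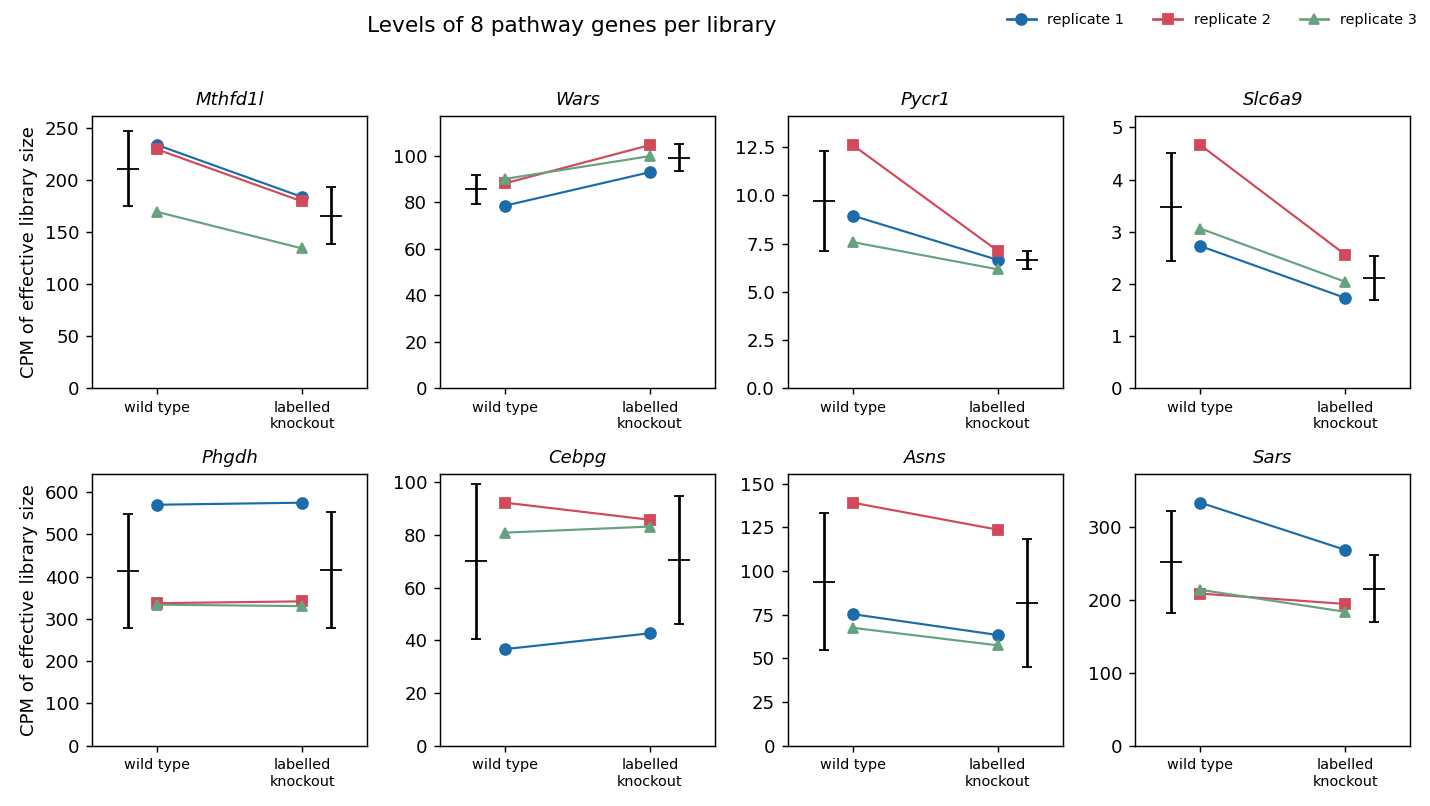
Level of 8 genes by library, in CPM of effective library size on vertical axes that start at 0, where a line connects libraries sharing a number and black bars give mean and SD (n = 3 per group). In the upper row Mthfd1l, Pycr1 and Slc6a9 slope down and Wars slopes up in each pair, while in the lower row Phgdh, Cebpg, Asns and Sars differ more between replicate numbers than between groups.

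Several members differed far more between replicate numbers than between groups. The mean level of a pair ranged between pairs by a median log2 value of 0.253 over the 37 tested members, against a median absolute change between the groups of 0.117. Over all tested genes these medians were 0.370 and 0.113. The range between pairs was the larger of the 2 quantities in 27 of 37 members (73.0%) and in 86.7% of all tested genes. A range over 3 pair means tends to exceed an absolute mean change even where replicate numbers have no effect. These medians and shares therefore do not show such an effect. Cebpg had the widest range (1.15), with replicate 1 below the mean of the others by a log2 difference of -1.09. Asns followed with 1.06, replicate 2 being higher than the others by 0.99. The members with the narrowest ranges were Atf4 (0.016), Ddit4 (0.026) and Aars (0.045).

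Genes next to a member along the chromosome shared its pattern for some members and not for others. For each member the 10 tested genes on either side in RefSeq order were taken, where there were as many. Phgdh was higher in replicate 1 by 0.77, and its 20 neighbours had a median difference of 0.47. Nars was higher in replicate 2 by 0.64 and Lars by 0.69, and their neighbours had medians of 0.62 and 0.55. These were the 3 highest neighbour medians, and each came with a member whose own level differed in the same replicate. Sars was higher in replicate 1 by 0.58 with a neighbour median of 0.14. The neighbours of Cebpg and Asns had medians of 0.047 and -0.014 in the replicates where those genes stood apart. The labels do not say that a replicate number stands for a mouse or a tumour, and the source of these differences was not tested.

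**Figure D4:**
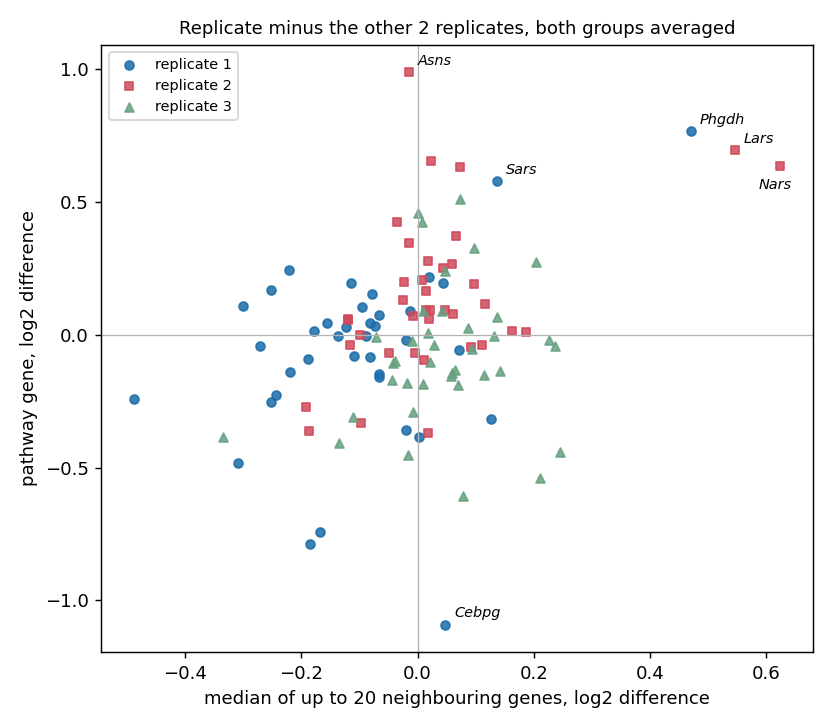
Difference in log2(value + 1) between a replicate number and the mean of the other 2, averaged over both groups, for each of the 38 genes (vertical axis) and for the median of its neighbouring tested genes (horizontal axis), with 1 symbol per replicate number. Phgdh, Lars and Nars lie at the upper right, at neighbour medians of 0.47, 0.55 and 0.62, while Asns and Cebpg lie near 0 on the horizontal axis.

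Other genes of the same pathways, in 8 further lists, gave no call in limma or edgeR. Of the tested genes, 0 of 12 other cytosolic synthetase genes and cofactors, 0 of 17 mitochondrial synthetase genes, 0 of 17 other folate and glycine genes and 0 of 12 other methionine, transsulfuration and glutathione genes passed in limma with or without pairs. The same held for 0 of 16 genes of eIF2α phosphorylation and its reversal, 0 of 14 other ATF4 targets, 0 of 13 other amino acid transporters and 0 of 5 other proline genes. Their median log2 changes lay between -0.10 for the other proline genes and 0.079 for the eIF2α genes. By unadjusted paired p under 0.05 the counts in the order given were 1, 3, 2, 3, 3, 6, 4 and 1, with none called by paired edgeR, and paired DESeq2 called 0, 1, 0, 3, 0, 3, 3 and 1. The shares over all tested genes were 21% by unadjusted paired p, 0.37% by paired edgeR and 7.01% by paired DESeq2. Cars and Cth each stand in 2 of the lists, so the DESeq2 call of Cth is counted in both. Nupr1, Gdf15, Fgf21, Stc2, Vldlr and Tnfrsf10b, ATF4 targets known from stressed cells, had means below 1 and were not tested.

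For 6 of these lists the gene with the smallest unpaired p is described. Gclm, a subunit of the enzyme that begins glutathione synthesis, was at 34.2, 33.3 and 35.0 in wild type and at 63.3, 48.8 and 43.3 in labelled knockout. The groups did not overlap, replicate 1 included (log2 change 0.57, paired interval 0.27 to 0.86, paired adjusted p = 0.115, paired DESeq2 0.00201). Slc43a2, a transporter of large neutral amino acids, was at 18.0, 16.2 and 30.6 and at 32.4, 48.0 and 48.3, again without overlap (0.99, 0.54 to 1.43, paired adjusted p = 0.0862, paired DESeq2 7.1e-06). The part of myeloid transcripts in the Gclm and Slc43a2 values was not tested. Gpt2, the mitochondrial alanine transaminase, was at 16.6, 20.4 and 12.7 and at 9.21, 13.8 and 7.92. It was lower in each pair and overlapped between the groups (-0.65, -0.88 to -0.41, paired adjusted p = 0.0569, paired DESeq2 0.00222). The others described here were Cars (-0.18), Cars2 (0.17) and Ppp1r15b (-0.15), with paired adjusted p of 0.160, 0.236 and 0.209.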

How the data were processed

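RNA-seq of 6 libraries was used, 3 per group, and all value columns were used. Tools named in the submitters' processing notes are STAR 2.4.2a, HTSeq, CASAVA and edgeR, beside genome build mm9, without their order. The unit of the deposited table is a signal: the reads of a gene over the effective library size. The deposited table calls them FPKM, but 100% of values in each library were whole multiples (tolerance 0.01 reads) of a single step, so gene length was not divided out. Reads were recovered from the steps for edgeR and DESeq2. The design had assumed a normalized unit, and limma on log2(value + 1) with a trended prior stayed the main test (two-sided, Benjamini-Hochberg over 10533 genes with a mean of at least 1, threshold 0.05). For counting strand and annotation the sources used here give nothing.

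Between libraries of the same number, deviations from the mean of the group had correlations over genes of 0.733, 0.726 and 0.837. Deviations sum to 0 within a group, which makes the other correlations negative on balance. Pairing by number rests on these values, not on the labels. All libraries differed from each other by more than counting noise. The series' design text calls the 3 libraries biological replicates. The unpaired fit weighs a change against the spread between libraries of a group, and the paired fit against the spread of the differences within pairs.

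The members and lists were chosen with earlier results of these data known. All members are given, with full statistics for the 2 with the smallest unpaired p in each branch. Named beside them are the gene with the smallest unpaired p of each further list (2 of these genes are not reported here), Prdm15 and the leading markers. Other genes named were chosen after their values were seen. Of 209 list entries, 2 matched through an older symbol and 0 matched no gene. Promoter letters and neighbours come from RefSeq GRCm38.p6, exon overlaps from GENCODE M21 (12 of 38 members), and no coordinates of mm9 are printed. The scripts were tested on simulated data. Software was Python 3.11.15, matplotlib 3.10.9, R 4.3.3, DESeq2 1.42.0, edgeR 4.0.16 and limma 3.58.1.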

Additional observations from a re-analysis of the deposited data

How the results depend on the processing

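The count of members past the threshold, 0 in the unpaired fit, was 2 with DESeq2 and the replicate block (1 higher, 1 lower) and between 0 and 3 when replicates were left out, and 0 under every other setting run. The 3 came from the paired fit without replicate 1 (Atf3, Slc7a11 and Mthfd1l), where Slc7a11 met the minimum mean only through labelled knockout. The count over all tested genes moved more. It was 1 in the unpaired fit and 92 with the replicate block (14 higher, 78 lower), 39 with edgeR and the block, 110 with DESeq2 and 738 with DESeq2 and the block. It was 0 with edgeR, with pseudocounts of 0.1 or 5, with no filter and with quantile normalization, and 2 with a minimum mean of 5. Where it was 0, between 232 and 1416 genes had an unadjusted p under 0.05. Alternatives added after the data were seen, all with the block, gave 81 with equal totals, 110 with quantile normalization and 5 with no filter. Leaving out replicates gave 0 to 849, the highest from the paired fit without replicate 1. The median log2 change of the members lay between -0.085, without labelled knockout libraries 2 and 3, and 0.050 with equal totals. Its sign turned with other scalings and when single libraries were left out. The value of -0.085 comes from the unpaired fit that the level of replicate 1 enters. Limits are the 3 pairs, low reads for Slc7a11, Trib3, Chac1 and Slc6a9, and the unknown counting strand.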
